A study of Danio rerio with 7 samples.

Results

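The genes described here encode intracellular and membrane inhibitors of fibroblast growth factor (Fgf) signalling: the Sprouty genes spry1 (ENSDARG00000103985), spry2 (ENSDARG00000078308) and spry4 (ENSDARG00000068732), the Spred genes spred1 (ENSDARG00000041449), spred2a (ENSDARG00000052435) and spred3 (ENSDARG00000040358), and the Sef gene il17rd (ENSDARG00000098359). They were chosen by gene ID as members of these families and not by their counts, and they are 7 of the 32189 gene IDs in the count table. One further ID of the same families, ENSDARG00000008372 (SPRED2 in the names table, here spred2b), was not among them and is given beside them.

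Fgf ligands bind receptor tyrosine kinases on the cell surface, and the activated receptors drive the Ras-ERK cascade through adaptor proteins. Sprouty and Spred proteins share a cysteine-rich Sprouty domain and restrain the step at Ras, and Sef is a transmembrane protein that restrains receptor and ERK signalling. Many of these genes are switched on by the pathway they inhibit, so in vertebrate embryos their transcripts often mark tissue close to a source of Fgf, such as the midbrain-hindbrain boundary.

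Transcripts were measured by RNA-seq in 7 zebrafish hindbrains, each dissected from 1 embryo at 24 hpf and made into 1 library, with no treatment labelled, and the comparison asked which genes depend on Fgf20a, an Fgf made by neurons in the centre of each hindbrain segment. For the 3 Fgf20aHOM libraries the embryos carried the dob mutation of fgf20a on both chromosomes, as did their parents, and their strain is labelled Fgf20a HOM. The 4 Cnt libraries came from wt embryos of the LondonAB strain. Mutation and strain therefore cannot be told apart, and no wild-type embryos from the mutant clutches were among the samples. The labels describe the tissue as hindbrain together with tissue around it. The mutant libraries carry the names F2, F3 and F4 of their count columns, which could be tied to the group but not to single samples.

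The Fgf20aHOM libraries held 52900433 to 55915518 counts and the Cnt libraries 59800936 to 69801072. A pair of IDs carries the symbol FGF20, and fgf20a was not told from fgf20b. Neither ID separated the genotypes: ENSDARG00000007356 had 181 to 270.1 normalised counts in Fgf20aHOM and 131 to 390.2 in Cnt, and ENSDARG00000086070 had 269 to 546 in Fgf20aHOM and 207 to 909 in Cnt. Among 15 lists of marker genes for the hindbrain and tissues next to it, hindbrain progenitor markers (4 IDs) summed to 2277 to 2573 CPM (counts scaled to the library total) in Fgf20aHOM and 1627 to 2580 CPM in Cnt. Of these, sox2 (94.2 to 106 against 55.8 to 77.8 CPM in Cnt) and sox19a (755 to 808 against 464 to 708) were higher in Fgf20aHOM without overlap. The progenitor markers sox3 and her4.1 overlapped. No marker was at 0 in all libraries. The summed levels of 2 of the 15 lists did not overlap between genotypes, where 17.5% of single tested genes did not. The hindbrain neuron markers (4 IDs) gave 1171 to 1460 CPM in Fgf20aHOM and 775 to 1122 CPM in Cnt. Of these, elavl3 and tubb5 did not overlap, but neurod4 and neurog1 did. The otic vesicle markers (6 IDs) gave 101 to 139 CPM in Fgf20aHOM and 175 to 626 CPM in Cnt. Of these, only stm did not overlap, at 10.9 to 26 CPM in Fgf20aHOM and 29.3 to 340.1 CPM in Cnt. In lists whose sums overlapped, the single markers hoxb3a, foxd3, crestin and foxi1 were also higher in Fgf20aHOM without overlap. So was the scarce EN2 ID ENSDARG00000026599, whereas tbxta was lower without overlap. Epidermis markers (5 IDs) ranged from 2765 to 8045 CPM in Fgf20aHOM and from 990.3 CPM in Cnt 2 to 19720 CPM in Cnt 1. The part of these differences in marker levels in the values below was not tested. In dissected tissue, fewer cells of a type and less RNA per cell cannot be told apart.

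In the dissected tissue as a whole, none of the 7 inhibitor genes differed between Fgf20aHOM and Cnt hindbrains beyond the spread between libraries. Relative to Cnt, 5 had a higher fitted level in Fgf20aHOM (spry1, spred1, spred2a, spred3 and il17rd) and 2 a lower one (spry2 and spry4), and all 7 intervals of the fold change included no difference. All 7 passed the filter on low counts. A gene was called changed where the edgeR quasi-likelihood test gave a Benjamini-Hochberg adjusted p of at most 0.01 with at least a 2-fold difference and more than 30 normalised counts in every library of 1 group. By these limits 0 of the 7 were called, against 86 of 19589 tested genes (0.439%). At an adjusted p of at most 0.05 in edgeR the count was again 0 of 7, against 1.51% of the tested genes. At an unadjusted p under 0.05 it was 0 of 7, against 15.6%. DESeq2, the count model that the study itself used, called 0 of the 7, against 3.08% of the 20571 genes for which it gave an adjusted p. At an unadjusted p under 0.05 its count was also 0 of 7, against 15.9% of 24906 genes. There spred3 lay at the limit, with an unadjusted p of 0.05 by DESeq2 after rounding. In 0 of the 7 did all Fgf20aHOM libraries lie on one side of all Cnt libraries, against 17.5% of the tested genes. The median log2 fold change of the 7 was 0.40, and that of all tested genes was -0.048.

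**Figure D1:**
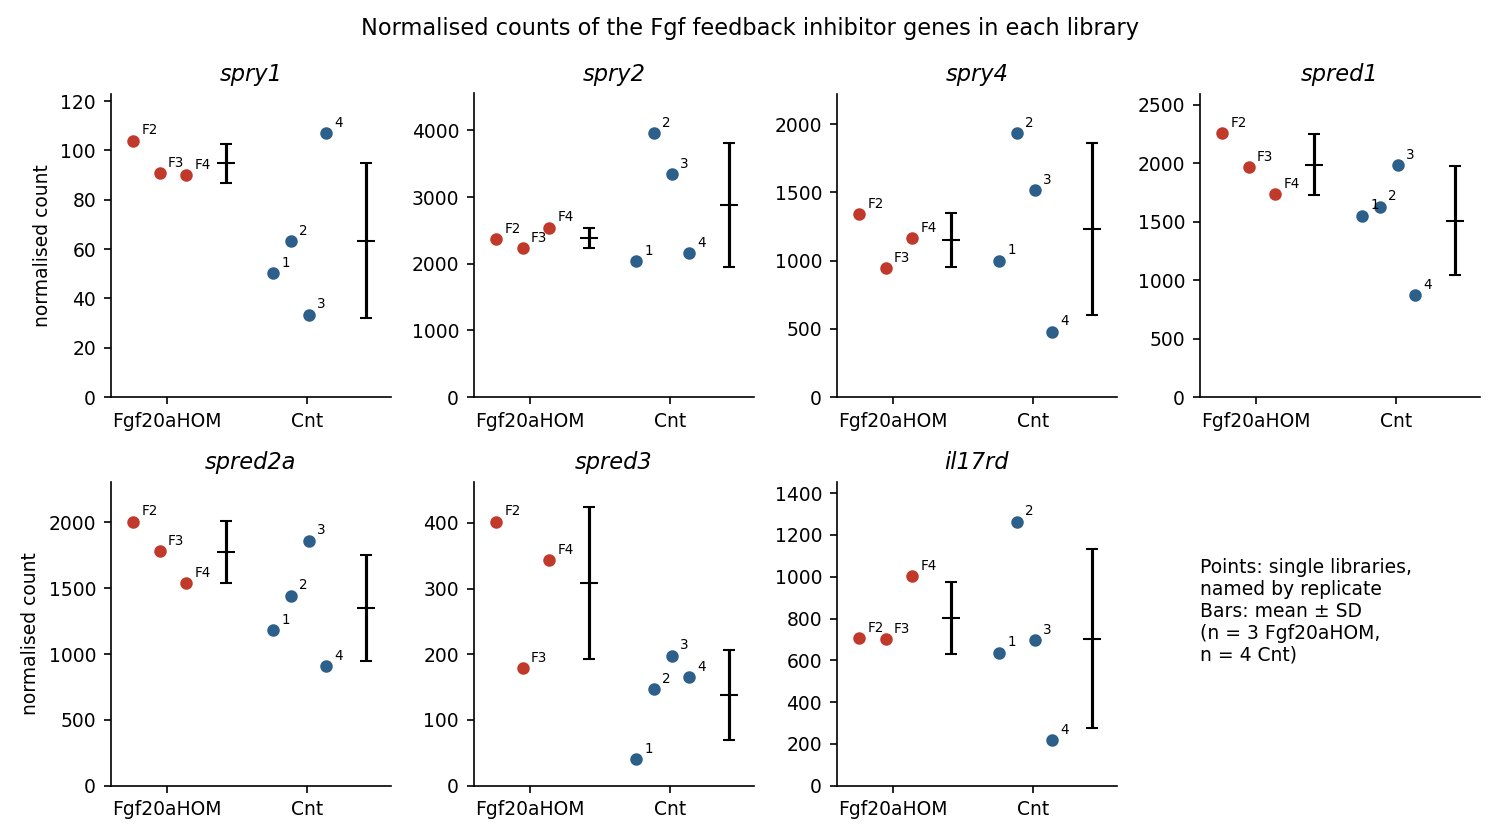
Normalised counts of the 7 inhibitor genes in each hindbrain library, with Fgf20aHOM F2, F3 and F4 in red to the left of Cnt 1 to 4 in blue, and bars for the mean ± SD (n = 3 and n = 4); each panel has its own axis from 0. The groups overlap in every panel. Relative to the group mean, the Cnt libraries spread more widely than the Fgf20aHOM libraries for every gene. The widest relative spread was that of il17rd in Cnt, where Cnt 2 reached 1264 and Cnt 4 had 217. For spred3 the SD itself was larger in Fgf20aHOM (115) than in Cnt (68.2).

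The Sprouty genes encode the cytoplasmic inhibitors of the set, and they did not share a direction. Normalised counts, which are counts scaled to a common library size, are used for each gene. Counts are not corrected for transcript length, so levels are compared between libraries and not between genes. In mice spry1 limits receptor signalling in the developing kidney. It had 104, 90.7 and 89.9 normalised counts in Fgf20aHOM F2, F3 and F4, against 50.3, 63.2, 33.4 and 107 in Cnt 1 to 4. The 3 mutant libraries lay close together and above 3 of the 4 Cnt libraries, but Cnt 4 was the highest of all 7. Mean levels of spry1 were 94.8 ± 7.71 in Fgf20aHOM and 63.5 ± 31.5 in Cnt (SD, n = 3 and 4). On the log2 scale the fitted difference was 0.58 ± 0.65 (SE; 95% interval -0.88 to 2.03), and the adjusted p by edgeR was 0.714. This gene rested on few reads, with 80 to 104 counts in the Fgf20aHOM libraries and 36 to 110 in the Cnt libraries.

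In vertebrates spry2 is a widely expressed member of the family that Fgf signals induce. Its normalised counts were 2374, 2239 and 2542 in Fgf20aHOM F2, F3 and F4, against 2043, 3959, 3349 and 2156 in Cnt 1 to 4. The Cnt libraries split into a high pair, Cnt 2 and Cnt 3, and a low pair, and all mutant libraries lay between these pairs. The means were 2385 ± 152 in Fgf20aHOM and 2877 ± 933 in Cnt (SD, n = 3 and 4). For spry2 the log2 fold change was -0.27 ± 0.28 (SE; 95% interval -0.89 to 0.34) and the adjusted p by edgeR was 0.679. On a linear scale this interval ran from 0.541 to 1.27 times the Cnt level, so both a 2-fold lower and a 2-fold higher level lay outside it.

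In zebrafish embryos spry4 is an Fgf-induced antagonist of Fgf8 signalling. It had 1341, 944 and 1164 normalised counts in Fgf20aHOM F2, F3 and F4, against 999.7, 1935, 1518 and 481 in Cnt 1 to 4. The mutant libraries fell inside the range of the Cnt libraries, whose highest, Cnt 2, had 4.02 times the level of the lowest, Cnt 4. The mean levels were 1150 ± 199 in Fgf20aHOM and 1234 ± 631 in Cnt (SD, n = 3 and 4), and the fit gave a log2 fold change of -0.10 ± 0.42 (SE; 95% interval -1.04 to 0.83; adjusted p = 0.937 by edgeR). Its direction depended on single libraries. The log2 fold change was 0.20 without Cnt 2, 0.012 without Cnt 3 and 0.067 without Fgf20aHOM F3.

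The Spred genes encode membrane-associated relatives of Sprouty that in mammals bring the Ras inhibitor neurofibromin to the plasma membrane. All 3 of the set had a higher fitted level in Fgf20aHOM, and none of the 3 passed the test. Their median log2 fold change was 0.40, against -0.10 for the 3 Sprouty genes. The contrast was not uniform, since the further Spred gene spred2b had -0.013 and the Sprouty gene spry1 had 0.58. In people, loss of 1 copy of the SPRED1 gene causes Legius syndrome. Zebrafish spred1 had 2256, 1967 and 1735 normalised counts in Fgf20aHOM F2, F3 and F4, against 1551, 1627, 1985 and 873 in Cnt 1 to 4. All mutant libraries lay above Cnt 1, Cnt 2 and Cnt 4, and Cnt 3 lay within their range. Means were 1986 ± 261 in Fgf20aHOM and 1509 ± 464 in Cnt (SD, n = 3 and 4), the log2 fold change was 0.40 ± 0.29 (SE; 95% interval -0.26 to 1.05) and the adjusted p by edgeR was 0.557.

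The pattern of spred2a, which like spred1 encodes a Ras-ERK inhibitor of the Spred type, was close to that of spred1. It had 2006, 1783 and 1540 normalised counts in Fgf20aHOM F2, F3 and F4, against 1182, 1444, 1862 and 909 in Cnt 1 to 4. Again only Cnt 3 reached into the range of the mutant libraries, and Cnt 4 was lowest. With means of 1777 ± 233 in Fgf20aHOM and 1349 ± 405 in Cnt (SD, n = 3 and 4), its log2 fold change was 0.40 ± 0.28 (SE; 95% interval -0.24 to 1.03) and its adjusted p 0.54 by edgeR. In the RefSeq annotation of GRCz12tu, a later assembly than the one used for counting, spred2a overlaps the protein-coding gene meis1a, and whether counting used the strand of the reads was not given, so its counts are less certain. The fit without Cnt 3 gave the highest log2 fold changes of spred1 and spred2a, 0.55 and 0.59, and the fit without Cnt 4 gave 0.25 and 0.29.

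The largest difference among the 7 was that of spred3, which in mammals is the weaker inhibitor among the Spred proteins. Its normalised counts were 402, 179 and 343 in Fgf20aHOM F2, F3 and F4, against 40.2, 147, 198 and 165 in Cnt 1 to 4. F2 and F4 lay above all Cnt libraries, F3 lay among them, and Cnt 1 stood far below the other 6 libraries. The mean was 308 ± 115 in Fgf20aHOM and 137 ± 68.2 in Cnt (SD, n = 3 and 4), which the fit put at a 2.24-fold higher level (95% interval 0.926 to 5.42 times). On the log2 scale this was 1.16 ± 0.57 (SE; 95% interval -0.11 to 2.44). By edgeR the unadjusted p was 0.0692 and the adjusted p 0.361. By DESeq2 the unadjusted p was 0.05 after rounding and the adjusted p 0.26. The log2 fold change was 0.86 without Cnt 1 and 1.48 without Fgf20aHOM F3, and only in the fit without F3 did a gene of the set, spred3, have an unadjusted p under 0.05 in edgeR. An annotated long non-coding RNA overlaps spred3 in GRCz12tu, and another overlaps il17rd, with the same limit as for spred2a.

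The Sef gene il17rd encodes a transmembrane protein first described in zebrafish as expressed in a pattern similar to fgf8. It had 706, 702 and 1003 normalised counts in Fgf20aHOM F2, F3 and F4, against 637, 1264, 698 and 217 in Cnt 1 to 4. The highest and the lowest library were both Cnt, Cnt 2 and Cnt 4, and differed by 5.83 times, whereas the mutant libraries differed by 1.43 times. Mean levels were 804 ± 173 in Fgf20aHOM and 704 ± 430.2 in Cnt (SD, n = 3 and 4), and the fitted log2 fold change was 0.19 ± 0.49 (SE; 95% interval -0.90 to 1.28; adjusted p = 0.884 by edgeR). Here too single libraries set the direction, since the log2 fold change was 0.63 without Cnt 2 and -0.078 without Cnt 4. The further family gene, spred2b, had 788, 799 and 1063 normalised counts in Fgf20aHOM F2, F3 and F4, against 1101, 747, 1407 and 310.3 in Cnt 1 to 4, and its fitted log2 fold change was -0.013 ± 0.45 (SE; 95% interval -1.01 to 0.98; adjusted p = 0.993 by edgeR). As with il17rd, the lowest library was Cnt 4.

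**Figure D2:**
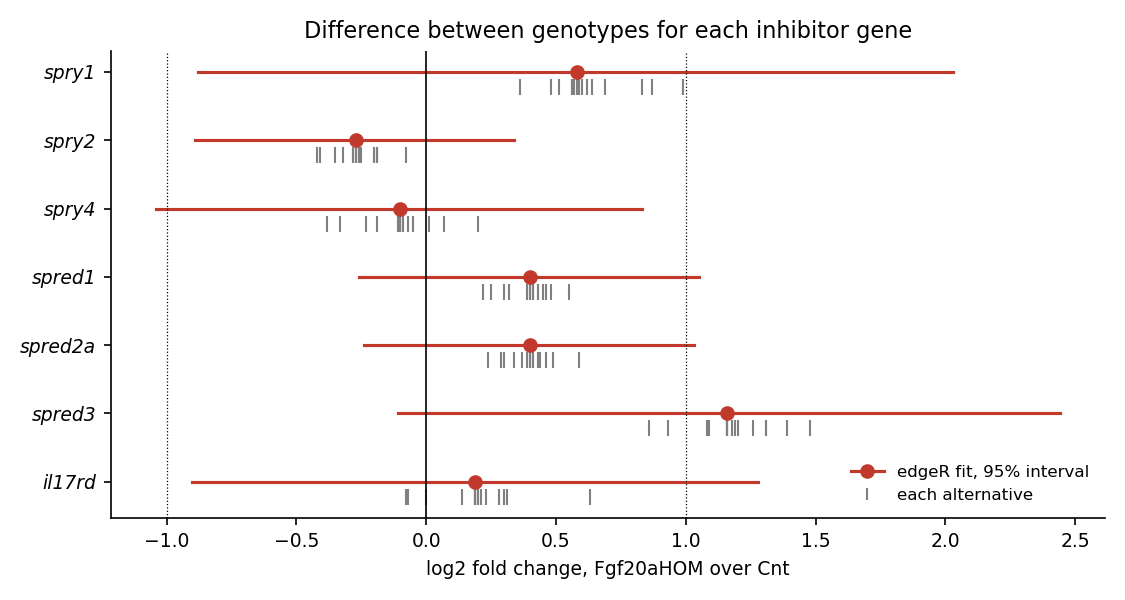
Fitted log2 fold change of each inhibitor gene, Fgf20aHOM over Cnt (red point, edgeR), with its 95% interval (red line) and the value under each alternative processing (grey ticks below); dotted lines mark 2-fold differences. All 7 intervals cross 0, only spred3 has a fitted difference beyond 2-fold, and the ticks of spry4 and il17rd fall on both sides of 0.

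The intervals bound what these libraries could have missed in the dissected tissue as a whole. A change limited to a part of it, such as segment centres, was not resolved. With all 7 libraries, a 2-fold lower level in Fgf20aHOM lay outside the interval for 6 of the 7 genes, all but spry4. A 2-fold higher level lay outside it only for spry2 and spry4. The exclusion of a lower level was less firm when single libraries were left out. Then il17rd was at 0.00081 ± 0.58 (SE) without Fgf20aHOM F4, spry1 at 0.36 ± 0.68 without Cnt 3 and spry2 at -0.41 ± 0.29 without Cnt 1. For spry1, spred1, spred2a, spred3 and il17rd the intervals held both no difference and a 2-fold higher level, which could not be distinguished with 7 libraries. Across the 17 alternative fits the lowest adjusted p of any of the 7 was 0.26, that of spred3 with DESeq2, and 0 of the genes were called in any of them, with spry1 and spred3 tested in 16. When single libraries were left out, the groups of some genes ceased to overlap: spred3 without Fgf20aHOM F3, il17rd without Cnt 2, spry1 without Cnt 4, and spred1, spred2a and spred3 without Cnt 3, each higher in Fgf20aHOM. This was 1 of the 7 without F3, against 25% of all tested genes, and 1 without Cnt 2, against 26.7%. It was 1 of the 7 without Cnt 4, against 21.2%, and 3 without Cnt 3, against 24.3%. In the fits without F2, F4 or Cnt 1 it was 0 of the 7, against 22.4%, 26.6% and 22.1%.

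Relative to their mean level, the 7 genes varied more among Cnt hindbrains than among Fgf20aHOM hindbrains. The coefficient of variation (SD over mean) was larger among the 4 Cnt libraries than among the 3 Fgf20aHOM libraries for 7 of 7 genes, and the same held for 64.1% of all tested genes. The widest was il17rd, at 21.5% in Fgf20aHOM and 61.1% in Cnt, and 89.3% of the 1000 tested genes nearest to it in mean level varied less among Cnt libraries. For spry4 it was 17.3% in Fgf20aHOM and 51.1% in Cnt, and 87.7% of the genes of similar level varied less among Cnt. The other genes stood closer to genes of their own level. Among Cnt libraries spry2 varied by 32.4%, spred1 by 30.8% and spred2a by 30.1%, against medians of 25.9%, 25.9% and 26.6% for genes of similar level. The low-count gene spry1 varied by 49.6% among Cnt, less than the 65.9% median of genes near it, and spred3 by 49.6%, against 44.6%. Among the 3 Fgf20aHOM libraries, spry1 varied by only 8.14% and spry2 by 6.35%, against medians of 51.4% and 19.7% for genes of similar level. Just 1.5% and 6.4% of those genes varied less. In Fgf20aHOM only spred3, at 37.4%, exceeded the median of genes near it (34.6%).

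A single library, Cnt 4, stood at an end of the Cnt range for 5 of the 7 genes. Cnt 4 had the lowest level among the Cnt libraries for spry4, spred1, spred2a and il17rd, and the highest for spry1. Its level was 0.324 times the mean of the other Cnt libraries for spry4, 0.508 times for spred1, 0.608 times for spred2a and 0.25 times for il17rd, and 2.19 times for spry1. Cnt 4 often lay at an end of its group elsewhere too. It was the lowest Cnt library for 31.9% and the highest for 29.1% of 16106 genes with a mean of at least 50 normalised counts. Cnt 2 came close to this, at 29.1% and 27.7%. Of the 7 inhibitor genes, Cnt 3 was the lowest Cnt library for 1 and the highest for 3. In CPM, which are scaled to the library total only, Cnt 4 was the lowest Cnt library in 11 of the 15 marker lists. Its epidermis markers were high instead, at 16615 CPM, against 19720 in Cnt 1, 990.3 in Cnt 2 and 3921 in Cnt 3. The scaling factor that edgeR gave Cnt 4 (TMM, 0.8793) was the lowest of the 7 libraries. Without Cnt 4 the coefficient of variation among Cnt was 31.6% for spry4, 39.9% for il17rd, 13.5% for spred1, 22.9% for spred2a and 30.5% for spry1, but 62.7% for spred3, whose lowest library was Cnt 1. Whether the make-up of the dissected tissue in Cnt 4 moved these genes was not tested.

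**Figure D3:**
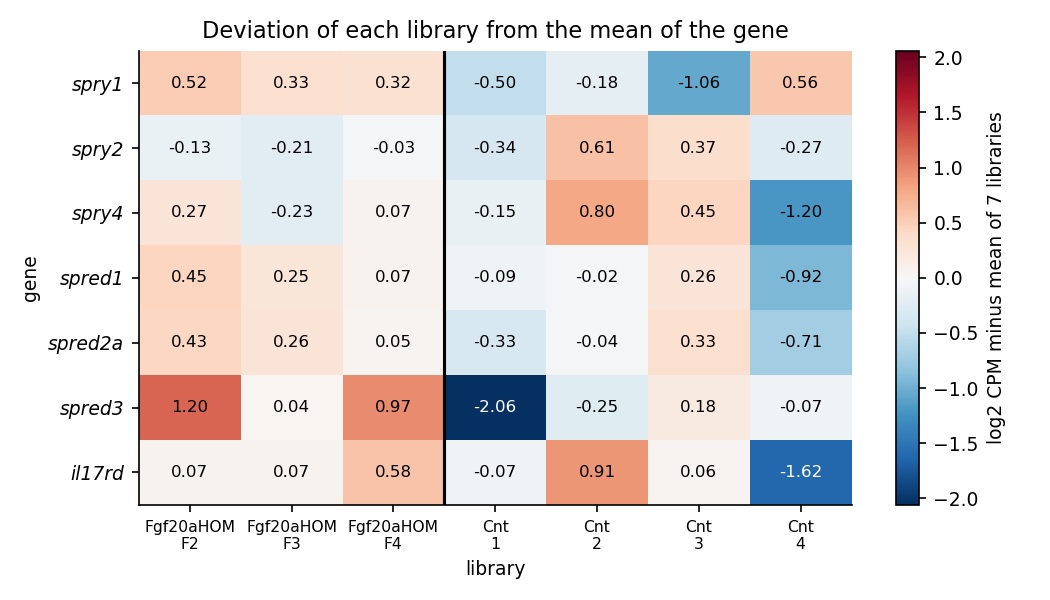
Difference of log2 CPM in each library (columns, Fgf20aHOM F2, F3 and F4 left of the line, Cnt 1 to 4 right of it) from the mean of the 7 libraries, for each inhibitor gene (rows); red is above and blue below that mean. Fgf20aHOM F4 lies at 0.97 for spred3, whereas Cnt 1 lies at -2.06 for it, and Cnt 4 lies at -1.62 for il17rd and -0.92 for spred1.

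The 7 genes did not vary as a block. Of the 21 pairs, 16 had a positive Pearson correlation of log2 CPM over the 7 libraries, with a median r of 0.33 and a range of -0.49 to 0.96. All pairs share the same libraries and their scaling. The exact permutation tests below used all 5040 pairings, were two-sided and were adjusted over the 21 pairs. The pair that varied most closely together was spred1 and spred2a, with r = 0.96 (exact permutation p = 2.0e-04, the smallest that the pairings can give, adjusted p = 0.00417) and Spearman's rho = 1.00 (exact permutation p = 4.0e-04, adjusted p = 0.00833). The 7 libraries were in the same order for both genes, and r was 0.96 after leaving out Fgf20aHOM F2 and Cnt 4, the libraries farthest from the median of spred1. The next pair, spry4 and il17rd, had r = 0.90 (exact permutation p = 0.0163, adjusted p = 0.171) and rho = 0.68 (exact permutation p = 0.11, adjusted p = 0.383). Without Cnt 2 and Cnt 4 its r was 0.084, so this relation rested on those libraries. For spry2 and spry4, r was 0.76 (exact permutation p = 0.0411, adjusted p = 0.288) and rho 0.86 (exact permutation p = 0.0238, adjusted p = 0.25), and r was 0.51 without Cnt 2 and Cnt 3. Only the pair spred1 and spred2a passed 0.05 after adjustment. Such a close relation was not particular to this pair. Among 9092 named genes with a mean of at least 10 CPM, 288 had r above 0.9 with spred1 and 309 with spred2a.

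**Figure D4:**
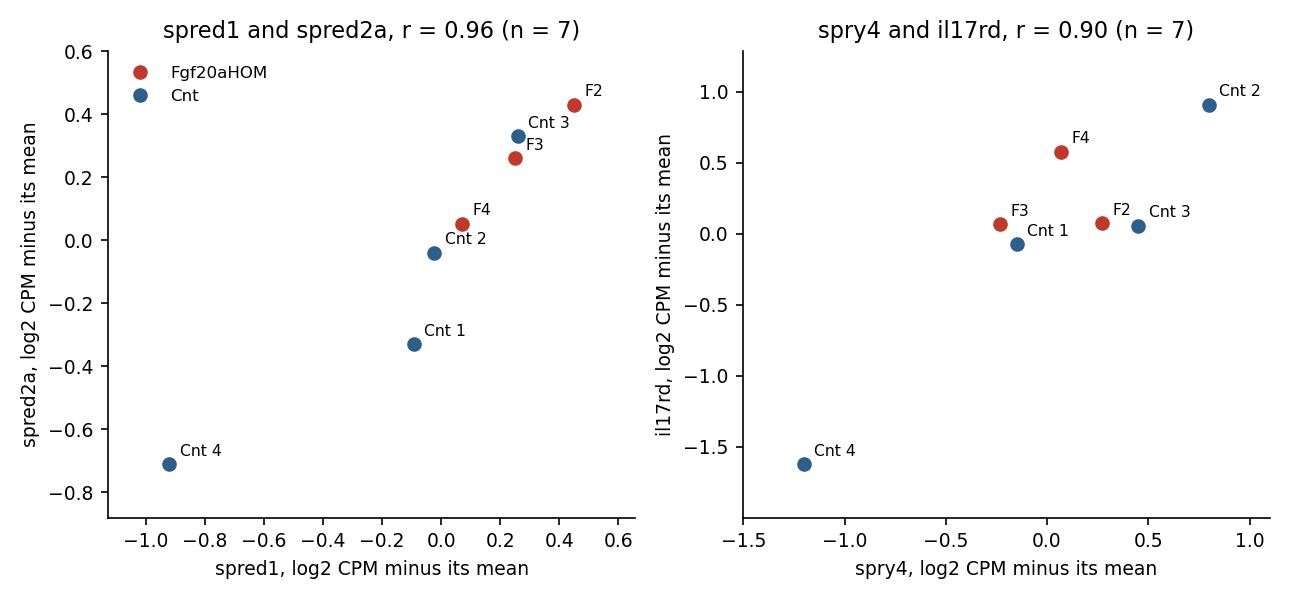
Log2 CPM minus its mean over the 7 libraries for spred1 against spred2a (left) and for spry4 against il17rd (right), with Fgf20aHOM libraries in red and Cnt libraries in blue. The left points follow one line through all 7 libraries (r = 0.96), whereas on the right r = 0.90 rests on Cnt 2 and Cnt 4, and is 0.084 without them.

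Within a library, summed counts of the Sprouty and Spred genes can be set against each other free of scaling, as a ratio. Counts are not corrected for transcript length, so the ratio is compared between libraries only. The Sprouty sum was mostly spry2 and spry4, and the Spred sum mostly spred1 and spred2a. This ratio was chosen after the values had been seen and is given without a test. The summed counts of the 3 Sprouty genes were 0.819, 0.833 and 1.05 times those of the 3 Spred genes in Fgf20aHOM F2, F3 and F4, against 1.12, 1.85, 1.21 and 1.41 times in Cnt 1 to 4. All mutant libraries thus lay below all Cnt libraries, the nearest being F4 and Cnt 1. This separation depended on which Spred genes were summed. The further Spred gene, spred2b, had 982 counts in F4 and 1095 in Cnt 1. With it in the Spred sum, F4 no longer lay below Cnt 1, so the groups overlapped. The levels of 17.5% of single tested genes did not overlap either, and the share of ratios between other genes that do not was not computed. Of the 21 ratios between single inhibitor genes, all but those of spry2 to spred2a and of spry2 to spred3 overlapped between the genotypes. Summed over all 7 genes, the level was 165, 131 and 147 CPM in Fgf20aHOM and 108, 179.7, 163 and 72.3 CPM in Cnt, with the mutant libraries inside the range of Cnt.

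For each inhibitor the 2 genes most like it in log2 CPM over the 7 libraries were searched among 9092 named genes with a mean of at least 10 CPM. They are a description over 7 points that share libraries and scaling, and no p is given. Spred1 was followed most closely by SNX14 (ENSDARG00000006332, r = 0.997), which encodes a sorting nexin, and MFSD14A (ENSDARG00000043055, r = 0.996). For spred2a they were mcama (ENSDARG00000089643, r = 0.99), a cell adhesion molecule, and TMED5 (ENSDARG00000008765, r = 0.99). The nearest genes to spry4 were SLC43A1 (ENSDARG00000037393, r = 0.99), an amino acid transporter, and the receptor tyrosine kinase ERBB2 (ENSDARG00000026294, r = 0.99). Nearest to spry2 were the homeobox gene PRRX1 (ENSDARG00000033971, r = 0.97) and the vascular growth factor VEGFA (ENSDARG00000103542, r = 0.97). With il17rd went QSOX2 (ENSDARG00000077174, r = 0.97), a sulfhydryl oxidase, and the kinase STK35 (ENSDARG00000086856, r = 0.97). Spred3 was nearest to csnk2a2b (ENSDARG00000013582, r = 0.97), a casein kinase subunit, and PRICKLE2 (ENSDARG00000037593, r = 0.97), and spry1 to IKZF5 (ENSDARG00000056491, r = 0.97) and BRD8 (ENSDARG00000025071, r = 0.94). The number of genes with r above 0.9 differed widely. It was 309 for spred2a and 288 for spred1, 99 for il17rd, 98 for spry4, 26 for spred3, 19 for spry2 and 11 for spry1. How many of 9092 unrelated genes would reach this over 7 libraries was not computed. The genes named here are the highest of that many, so their r alone does not show a relation.

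The rest of the Fgf-ERK pathway was followed in 6 lists with 82 gene IDs, of which 80 were tested. By edgeR 0 of the 80 were called in either direction and 0 had an adjusted p of at most 0.05, and DESeq2 called 2 (dusp16 and sos1, both higher in Fgf20aHOM), where it called 3.08% of all genes. An edgeR unadjusted p under 0.05 was found for 10 of the 80 (12.5%), 7 higher and 3 lower in Fgf20aHOM, against 15.6% of all tested genes, and the median log2 fold change was 0.13. Over all tested genes 47.3% had a higher fitted level in Fgf20aHOM. Of the 12 other feedback genes, mainly MAP kinase phosphatases, 8 had a higher one (median log2 fold change 0.30). The phosphatase genes went both ways, with dusp6 at -0.47 ± 0.27, dusp1 at -0.038 ± 0.27, dusp4 at 0.50 ± 0.51 and dusp7 at 0.41 ± 0.24 (SE). Of the 10 PEA3 and early response genes, which Fgf and ERK activity switch on, 6 had a lower fitted level in Fgf20aHOM (median -0.45). Some of these had few counts and a wide SE, among them egr1 at 1.91 ± 1.59 and fosl1a at -0.59 ± 1.30 (SE). The median rests in part on fosl1a. The PEA3 genes themselves went both ways, at 0.15 ± 0.48 for etv4, 0.68 ± 0.37 for etv5a and -0.32 ± 0.38 for etv5b (SE). Of the 34 adaptors and members of the Ras-ERK cascade, 21 were higher (median 0.19). That list mixed activators with inhibitors, so its median is not a level of the forward cascade. It held the NF1 IDs, for the Ras inhibitor neurofibromin, at 0.67 ± 0.32 and 0.77 ± 0.30 (SE). The RASA1 IDs were at 0.72 ± 0.25 and -0.11 ± 0.32, and the adaptor grb2a at -0.64 ± 0.28 (SE). Of the 7 receptors 5 were higher (median 0.21), and of the 16 ligands tested 9 were lower (median -0.21).

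The feedback phosphatase gene dusp16 (ENSDARG00000102474), whose mammalian product acts mainly on the JNK and p38 kinases, had the smallest p of the lists. It had 3038, 2236 and 2520 normalised counts in Fgf20aHOM F2, F3 and F4, against 1200, 423, 1107 and 784 in Cnt 1 to 4, without overlap. The log2 fold change of dusp16 was 1.56 ± 0.35 (SE). Adjustment left p at 0.0643 in edgeR and at 0.00177 in DESeq2, and dusp16 was called in 2 of the 17 alternatives and not by the edgeR quasi-likelihood test. Levels of sos1 (ENSDARG00000100503), the exchange factor that loads Ras with GTP, were 257, 292 and 247 in Fgf20aHOM, against 68.4, 71.4, 109.5 and 55.4 in Cnt 1 to 4. These groups did not overlap either, and sos1 gave a log2 fold change of 1.80 ± 0.46 (SE; adjusted p = 0.1 by edgeR and 0.001 by DESeq2). The adaptor FRS2 (ENSDARG00000045873), which links Fgf receptors to Sos, had 718, 1322 and 1270 normalised counts in Fgf20aHOM, against 522, 515, 505 and 699 in Cnt 1 to 4, and a log2 fold change of 0.98 ± 0.31 (SE; adjusted p = 0.165 by edgeR). The ubiquitin ligase gene cblb (ENSDARG00000015199), which in mammals attenuates receptor tyrosine kinase signals, gave 1.39 ± 0.64 (SE; adjusted p = 0.331 by edgeR). None of these passed the limits in the edgeR quasi-likelihood test, whereas dusp16 and sos1 passed them in DESeq2, the test of the study.

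The 2 PEA3 and early response genes with the smallest p both had a lower fitted level in Fgf20aHOM, whereas 4 of the 10 in that list had a higher one. The immediate early gene ier2a (ENSDARG00000099195) had 761, 802 and 811 normalised counts in Fgf20aHOM F2, F3 and F4, against 1394, 1080, 1265 and 1242 in Cnt 1 to 4. Its groups did not overlap, but at a log2 fold change of -0.65 ± 0.24 (SE) the adjusted p by edgeR was 0.229. The Myc family gene mych (ENSDARG00000077473) gave -0.77 ± 0.29 (SE; adjusted p = 0.233 by edgeR), with Cnt 1 inside the range of the mutant libraries. At the upper end of the pathway, the FGFR1 receptor IDs ENSDARG00000011190 and ENSDARG00000011027 gave log2 fold changes of 0.96 ± 0.41 and 0.48 ± 0.31 (SE; adjusted p = 0.292 and 0.496 by edgeR). Among ligands, the IDs with the smallest p were those of FGF13, an intracellular Fgf relative, ENSDARG00000056633 at -0.58 ± 0.35 and ENSDARG00000035056 at -0.43 ± 0.30 (SE; adjusted p = 0.459 and 0.533 by edgeR). None of these differences passed the test.

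**Figure D5:**
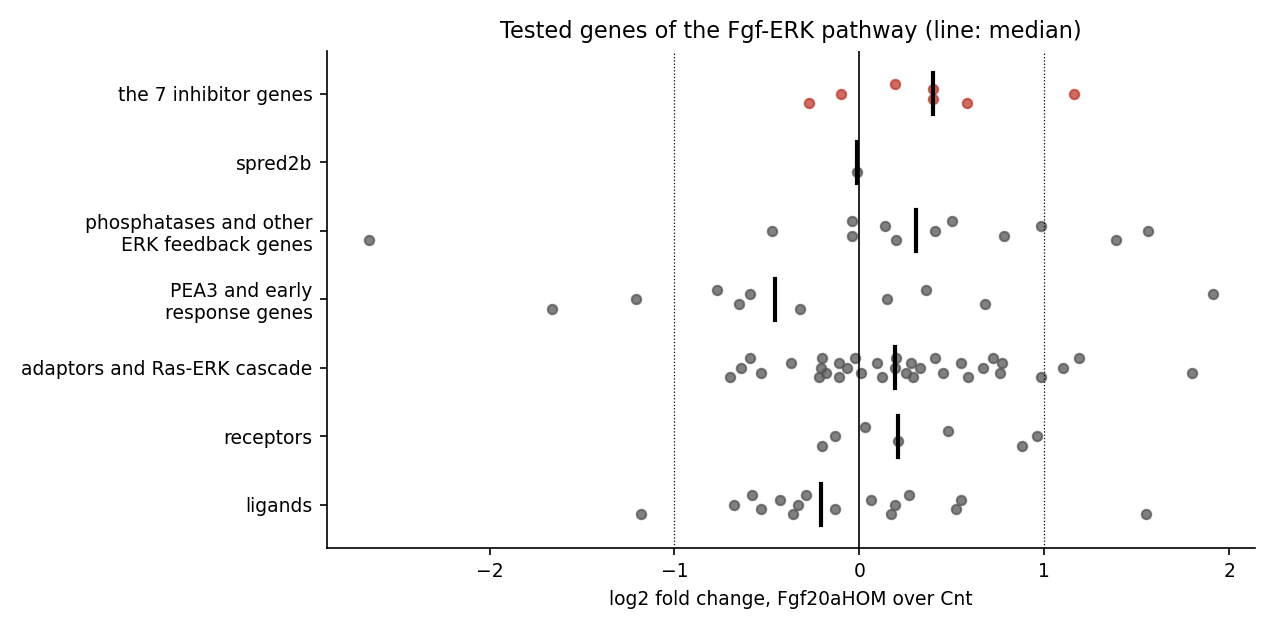
Fitted log2 fold change, Fgf20aHOM over Cnt, of each tested gene of the Fgf-ERK pathway, by list, with the 7 inhibitor genes in red in the top row, the list medians as black bars and 2-fold differences as dotted lines. The median of the inhibitor genes is 0.40, and list medians run from -0.45 for the PEA3 and early response genes to 0.30 for the phosphatases and other feedback genes, with points of every list but that of the single gene spred2b on both sides of 0.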

How the data were processed

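The authors amplified cDNA with the NuGEN Ovation RNA-Seq System V2, made Nextera XT libraries and sequenced read pairs. They counted with RSEM (1.2.31 in the submitters' processing notes) after STAR (2.5.1b) alignment to GRCz10 with Ensembl transcripts. The deposited table holds estimated counts (RSEM expected counts) per gene, rounded to whole numbers by the authors and not scaled. RSEM divides reads that fit several genes, so counts of close copies such as spred2a and spred2b are less certain. Use of strand and of molecular identifiers was not given in the sources used here. Plain counts had been planned for, and the rounded estimates went into the count tests chosen for them.

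The main test, in R 4.3.3, was edgeR 4.0.16's quasi-likelihood F test (TMM factors, robust, filterByExpr, genotype only), two-sided, with Benjamini-Hochberg adjustment over the 19589 genes kept. A gene was called with an adjusted p of at most 0.01, at least a 2-fold difference and more than 30 normalised counts in all libraries of at least 1 group, limits taken from the study. The study applied these limits with DESeq2, which is an alternative here. Normalised counts are counts over the TMM-scaled library size, multiplied by its mean; log2 CPM used a prior count of 2. SEs and 95% intervals were derived from the F statistic. Each library was 1 embryo, so p-values measure the spread between embryos of these groups.

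The genes, the lists and the tests were chosen with earlier results of these data known. Named were all 7 inhibitor genes, in each pathway list the 2 tested genes with the smallest unadjusted p, any called gene, and for each inhibitor the 2 genes with the highest r. A few further pathway genes, such as the PEA3 genes, were named to show how a list divided. Pathway lists held 86 entries and matched 82 IDs, and marker lists held 61 entries and matched 52. Of 32189 IDs 26350 had a symbol. Permutation p-values of correlations were added after r had been seen. Alternatives were DESeq2 1.42.0, limma-voom (limma 3.58.1) with quality weights, other scalings and filters, 1 surrogate variable (sva 3.50.0), leaving out each library, a likelihood ratio test and edgeR without robust estimation. The code was tested on simulated data. No sequences or gene positions of the GRCz10 annotation were used here.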

Additional observations from a re-analysis of the deposited data

Results flagged for a closer look

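Levels among the 4 Cnt libraries were screened in 34 measures for a single library far from the others (by the 95% critical value of Dixon's ratio of gap to range), of which chance alone would give about 1.7, and 2 were found. None was a level of the 7 inhibitor genes. The adaptor gene FRS2 (ENSDARG00000045873) had 699 normalised counts in Cnt 4 against 505 to 522 in Cnt 1 to 3 (ratio 0.912). The otic vesicle markers summed to 626 CPM in Cnt 3 against 175 to 217 CPM in Cnt 1, 2 and 4 (ratio 0.907). The part of either in the values of the inhibitor genes was not tested.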

How the results depend on the processing

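Of 117 log2 fold changes of the 7 inhibitor genes under 17 alternatives, 112 kept their direction and 0 passed the limits. The 5 that reversed were spry4 at 0.20 without Cnt 2, 0.012 without Cnt 3 and 0.067 without Fgf20aHOM F3, and il17rd at -0.071 with 1 surrogate variable and -0.078 without Cnt 4. With single libraries left out, log2 fold changes ranged from 0.36 to 0.99 for spry1, from -0.41 to -0.078 for spry2, from -0.33 to 0.20 for spry4, from 0.25 to 0.55 for spred1, from 0.29 to 0.59 for spred2a, from 0.86 to 1.48 for spred3 and from -0.078 to 0.63 for il17rd. The value of spred2b reversed to 0.04 with total counts only, 0.014 without a filter, 0.10 without Cnt 1, 0.29 without Cnt 3, 0.063 without Fgf20aHOM F2 and 0.093 without Fgf20aHOM F3. It was -0.26 without Cnt 4 and -0.27 with 1 surrogate variable. Of all genes, 86 were called by edgeR, 634 by DESeq2, 46 with 1 surrogate variable and 379 by the edgeR likelihood ratio test, and 15 to 69 with single libraries left out (15 without F3, 23 without F4, 36 without Cnt 1, 49 without Cnt 2, 28 without Cnt 3 and 50 without Cnt 4). Of the pathway lists DESeq2 called 2 genes (dusp16 and sos1) and the likelihood ratio test 1 (dusp16). The causes were not tested. The likelihood ratio test and the fit without robust estimation were chosen after seeing the data. At a filter of 1 CPM in every library spry1 and spred3 were not tested. No paired analysis was possible because the numbers of the Fgf20aHOM columns did not match those of their sample titles. Apart from such numbers, nothing in the sources used here paired mutant with Cnt embryos, which came from different strains. With 3 and 4 libraries intervals were wide: that of spry1 spanned 0.544 to 4.09 times the Cnt level, and that of spred3 0.926 to 5.42 times.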
